A study of Mus musculus with 8 samples.

Results

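Ribosomal proteins are the protein parts of the machines that translate messenger RNA, and mouse cells build them in separate sets for the cytosol and for the mitochondrion. Their transcripts were followed here in CD45.1+ blood stem and progenitor cells of mice with and without a BCR-ABL leukemia, on 8 Affymetrix arrays. A gene was a member where a probe set (the group of probes that reports a transcript) named it alone and its symbol was Rpl or Rps with a number or a stalk protein name (Rplp0 to Rplp2), for the cytosolic class, or Mrpl or Mrps with a number, for the mitochondrial class. This gave 121 of the 18193 genes measured. The cytosolic class held 45 of them, 24 of the large and 21 of the small subunit by their symbols. The mitochondrial class held 76, 47 of the large and 29 of the small subunit. Each gene was read through its probe set of highest mean over the 8 arrays.

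The 4 groups had 2 arrays each. Leukemic mice were CD45.1+ hosts that had received, in equal numbers, CD45.1+ marrow and CD45.2+ marrow carrying BCR-ABL x SCL-tTA. Normal mice differed in that BCR-ABL was left out. Chronic myeloid leukemia is driven by the BCR-ABL kinase, and SCL-tTA is a transactivator under stem and progenitor cell control that turns it on when tetracycline is taken from the water. All 8 samples were sorted CD45.1+ cells, so they did not come from the transgenic donor, and host cells that outlived the transplant carry the same mark as the co-transplanted cells. HSC were the CD150+ CD48- cells within the KSL gate (lineage negative, Kit+, Sca-1+), sorted 4 weeks after tetracycline withdrawal. Both leukemic KSL samples have a title that names normal as well as leukemic mice, and their disease state label, leukemic mouse, set their group. KSL were the whole gate, which includes the HSC, with no sort time stated in the labels. Nor do the labels state that each group's 2 arrays stem from different mice, so a p-value covers the spread among these arrays alone. In each group of normal mice 1 array carried a male pattern and the other did not (given below), so these arrays differ in source. In the groups of leukemic mice the spread may be technical.

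The cytosolic ribosome takes its ribosomal proteins in fixed numbers, and cells hold the transcripts of these proteins to a common level largely through shared promoter types and, at translation, through the mTOR pathway. Mitochondrial ribosomes are built from nuclear-encoded proteins that are imported and joined to mitochondrial RNA, and they make only membrane subunits of the respiratory chain. Blood stem cells are known for slow protein synthesis and low mitochondrial respiration, and several cytosolic ribosomal proteins are lost or mutated in human marrow failure.

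The sorted cells carried the markers of their labels. The median of 9 measured HSC markers, among them Procr and Slamf1 (which encodes CD150), was 8.23 to 9.36 on the HSC arrays and 5.50 to 6.34 on the KSL arrays, in log2 expression. A list of 7 granulocyte-monocyte progenitor markers, such as Mpo and Elane, had medians of 6.30 and 6.53 in HSC of normal mice, 8.74 and 9.00 in HSC of leukemic mice and 12.4 to 13.1 in KSL, with 0 of 7 at the floor of the deposited values (10 on the linear scale, 3.32 in log2) on any array. The median of 7 proliferation markers was 9.83 to 9.95 on 3 HSC arrays, 10 on replicate 1 of HSC of normal mice and 10.5 to 10.7 in KSL. Of the 7 neutrophil markers, whose defining genes S100a8 and S100a9 were above the floor on all 8 arrays, the median was 9.13 and 5.59 on the arrays of HSC of normal mice, 9.17 and 9.78 in HSC of leukemic mice and 5.64 to 8.37 in KSL. Replicate 1 of HSC of normal mice and replicate 1 of KSL of normal mice carried a male pattern, with Xist (the RNA of the inactive X chromosome) at 5.79 and 3.67 against at least 11.6 on the other 6 arrays. The log2 signal of the 3′ over the 5′ control probe set of Gapdh, which rises as RNA is degraded or copied short, was 1.03 and 1.19 in HSC of leukemic mice and 0.729 to 0.894 on the other 6 arrays. For Tfrc it was -0.750 and -0.355 against -2.04 to -1.28, and for Actb the groups overlapped, at -0.528 to -0.366. The part of these differences in the results that follow was not tested.

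Most cytosolic members sat near the top of the signal range, and the mitochondrial members lay in its middle. The mean signal was above 12 for 33 of the 45 cytosolic members and for 1 of the 76 mitochondrial members, Mrpl52, against 0.8135% of all genes. The cytosolic median was 13.1, within a range of 3.38 to 14.3, where the brightest probe set on an array read 14.5 to 14.7. The mitochondrial median was 9.33, within a range of 7.02 to 12.6. Signals of different probe sets depend on their probes, so they give no order of transcript abundance, and whether signals near the top of the range still respond in proportion was not tested.

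The dim end of the cytosolic class came mostly from how probe sets are named. Of the 12 cytosolic members with a mean at or below 12, 8 had a brighter probe set that names several symbols and was therefore not used: Rpl12, Rpl14, Rpl37, Rpl39, Rps16, Rps25, Rps27 and Rps6, whose shared probe sets read 13.2 to 13.7. The values of these 8 genes given here are those of their dim probe sets. The other 4 were Rpl39l at 3.71, Rpl3l at 4.52, Rps4l at 6.38 and Rps27l at 11.9. Another 28 cytosolic symbols, among them Rpl3, Rpl5 and Rpl10, and the mitochondrial Mrpl30 and Mrpl53 appeared only on probe sets of several symbols and were not members.

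**Figure D1:**
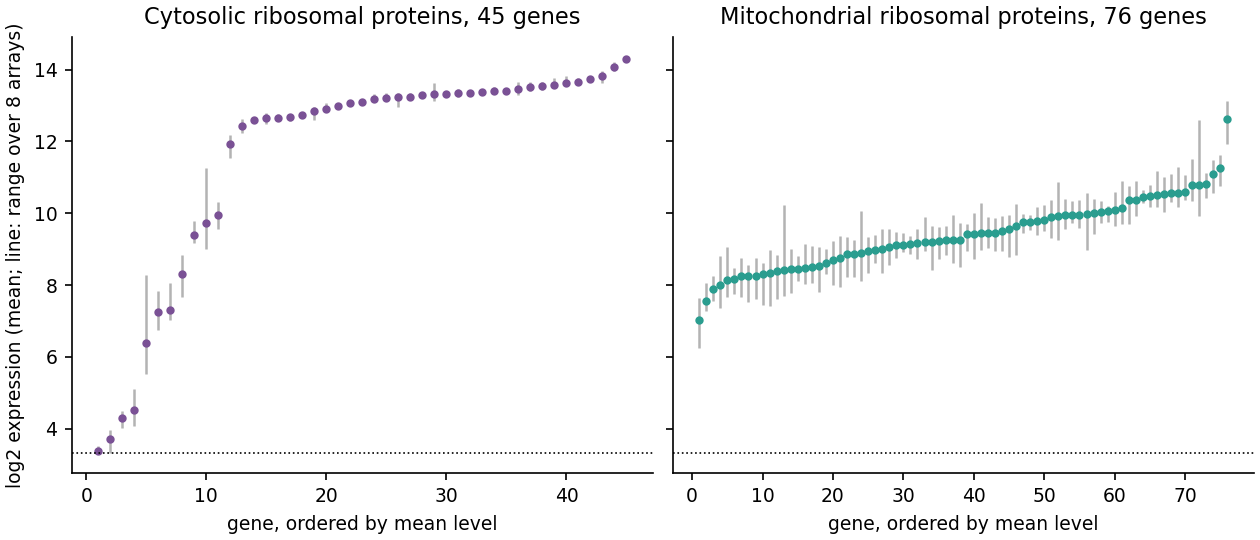
Mean log2 expression of each cytosolic (left, 45 genes) and mitochondrial (right, 76 genes) member, ordered by mean, with a line for the range over the 8 arrays and a dotted line at the floor of the deposited values (3.32). The cytosolic curve has a plateau of 33 genes above 12 and a dim tail of 12 genes, and the mitochondrial members run from 7.02 to 12.6 with longer lines.

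The spread between replicate arrays differed by class and by gate. In the median member, the SD between the 2 arrays of a group was 0.063 and 0.068 for cytosolic genes in HSC of normal and of leukemic mice and 0.042 and 0.051 in KSL. For mitochondrial genes it was 0.283 and 0.249 in HSC and 0.138 and 0.085 in KSL, and for all genes 0.196 and 0.208 in HSC and 0.114 and 0.094 in KSL. Single members spread much more. Mrpl12, which also binds the mitochondrial RNA polymerase, read 12.61 and 10.17 on the arrays of HSC of leukemic mice, and Mrps23 read 7.89 and 10.23 there. Rps4l, a second gene of the Rps4 family, read 8.27 and 5.52 in HSC of normal mice. In these genes the replicate gap was larger than any difference between groups.

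Taken as a class, the mitochondrial members were lower in HSC than in KSL of leukemic mice, and the cytosolic medians differed far less between arrays. The median deviation of the 76 mitochondrial members from their own means was 0.032 and -0.220 on the arrays of HSC of normal mice, -0.176 and -0.131 in HSC of leukemic mice, -0.017 and 0.104 in KSL of normal mice, and 0.214 and 0.154 in KSL of leukemic mice. The arrays of leukemic mice did not overlap between HSC and KSL, while the arrays of normal mice did. For the 45 cytosolic members the same value stayed between -0.043 and 0.046 on all 8 arrays. The array-to-array SD of these medians, pooled within groups (n = 2 each), was 0.102 for the mitochondrial and 0.019 for the cytosolic class. KSL of leukemic mice was the highest group for 41 of the 76 mitochondrial members, and HSC of leukemic mice was the lowest for 38. The same counts were not made over all genes, so these do not show a trait of the class. In bulk samples such as these, fewer cells of a type and less of a transcript per cell cannot be told apart.

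**Figure D2:**
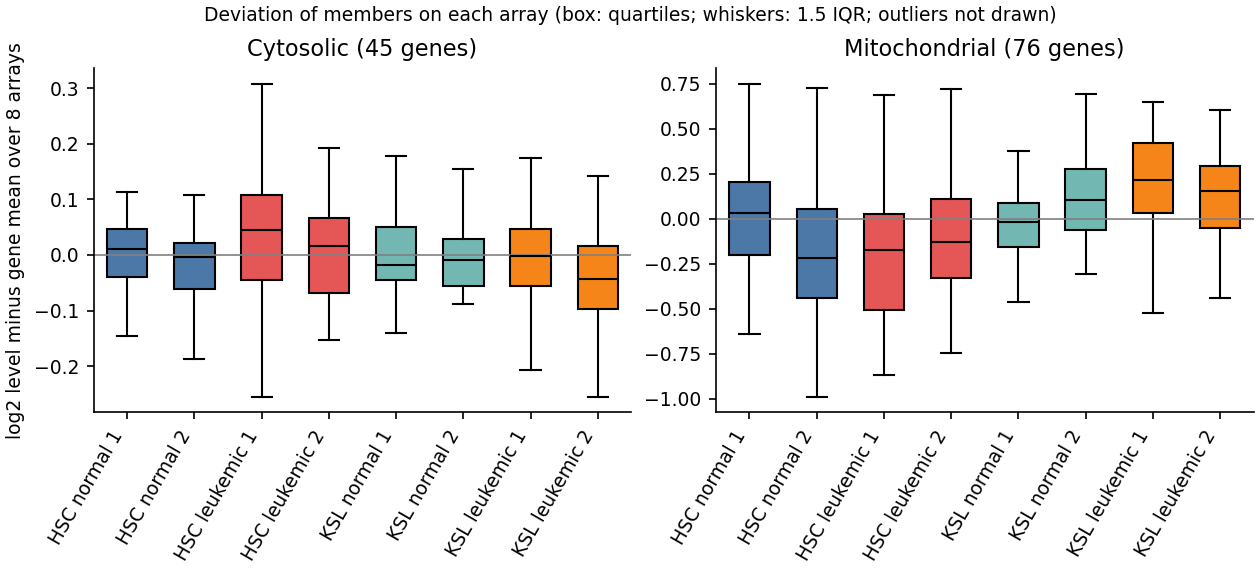
Deviation of each member from its own mean over the 8 arrays, in log2 units, by array, for the cytosolic (left) and mitochondrial (right) class, with separate y axes. Boxes give the median and quartiles, whiskers reach 1.5 interquartile ranges and points beyond them are not drawn. The mitochondrial median is lowest on replicate 2 of HSC of normal mice (-0.220), whose replicate 1 is at 0.032. It is highest on replicate 1 of KSL of leukemic mice (0.214).

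HSC against KSL of normal mice asks how the stem cell fraction differs from the whole gate without leukemia. Mrps14, a small-subunit protein of the mitochondrial ribosome, was the only member that passed the test (limma on all 8 arrays, Benjamini-Hochberg adjustment over 18193 genes, adjusted p under 0.05). It read 10.05 and 9.93 in HSC and 10.83 and 10.90 in KSL. All HSC arrays were below all KSL arrays, and the difference was -0.87 ± 0.11 (SE, n = 2 per group; limma adjusted p = 0.043). That is 1 of 76 mitochondrial and 0 of 45 cytosolic members, where 1.8% of all genes passed (0.803% higher and 1% lower). At an unadjusted p under 0.05, limma counted 1 higher and 6 lower mitochondrial members and 1 higher and 1 lower cytosolic member, where 8.86% of all genes were higher and 7.36% lower. The call on Mrps14 was lost when any of the 8 arrays was left out, at adjusted p between 0.0667 and 0.199 (limma), with the difference at -0.93 to -0.81. Arrays of other groups count here because the fit pools the spread over all 8.

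The mitochondrial class leaned to lower values in HSC of normal mice. The median difference of its 76 members was -0.19, with 50 lower and 26 higher, beside a median of 0.00 over all genes, of which 41.8% were lower and 50% higher. The arrays did not overlap for 19 lower members (25% of the class, against 19.3% of all genes) and for 9 higher members (11.8%, against 24.2%). Without replicate 2 of HSC or of KSL of normal mice the median was -0.039 and -0.045, and without both male-pattern arrays it was -0.37. Among the lower members whose arrays did not overlap, Mrpl41 differed by -1.06 (9.72 and 8.99 in HSC, 10.27 and 10.56 in KSL; limma adjusted p = 0.196). Mrpl58, a peptidyl-tRNA hydrolase that became part of the large subunit, differed by -0.59, Mrpl27 by -0.58 and Mrps11 by -0.52. Higher and without overlap were Mrpl52 by 0.68, Mrps2 by 0.66, Mrpl4 by 0.63, Mrps5 by 0.50 and Mrpl42 by 0.34, none of which passed (limma adjusted p of at least 0.0676).

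In leukemic mice 8 members passed in HSC against KSL, 7 of them mitochondrial. Among the 76 mitochondrial members, 2 were higher and 5 were lower in HSC, which is 9.21% of the class, where 5.86% of all genes passed (3.13% higher and 2.74% lower). With quantile normalization or with arrays shifted to a common median the split was 1 higher and 7 lower. Among the 45 cytosolic members, 1 was higher and 0 lower. At an unadjusted p under 0.05, limma counted 2 higher and 19 lower mitochondrial and 8 higher and 4 lower cytosolic members, where 12.7% of all genes were higher and 10.3% lower.

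Mrps18a fell furthest. It is a homolog of the bacterial S18 protein, and structures place it in the large subunit despite its symbol. It read 7.96 and 8.14 in HSC and 9.21 and 9.36 in KSL of leukemic mice, with 8.80 and 8.42 in HSC and 9.10 and 9.08 in KSL of normal mice. All 4 HSC arrays were below all 4 KSL arrays, and the gap in leukemic mice was -1.24 ± 0.15 (SE, n = 2 per group; limma adjusted p = 0.0242).

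Mrpl40 and Mrpl19, both of the large subunit, followed. Mrpl40, which lies in the region deleted in DiGeorge syndrome in humans, read 7.78 and 7.96 in HSC and 9.01 and 8.94 in KSL of leukemic mice, a difference of -1.10 ± 0.14 (SE, n = 2 per group; limma adjusted p = 0.0285). In normal mice it read 8.54 and 8.18 in HSC and 8.64 and 8.50 in KSL, so the groups overlapped there. Mrpl19 read 8.08 and 8.07 in HSC and 9.14 and 9.06 in KSL of leukemic mice, a difference of -1.02 ± 0.16 (limma adjusted p = 0.0428), and 8.02 and 8.46 against 8.65 and 8.43 in normal mice. Of the other 3 probe sets of Mrpl19, 1 showed -1.06, 1 showed -0.41 and 1 showed 0.86, so they disagreed in sign.

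Mrpl33 and Mrps14 were the other mitochondrial members that fell. Mrpl33, a short protein of the large subunit, read 10.08 and 10.04 in HSC and 11.001 and 10.75 in KSL of leukemic mice, a difference of -0.82 ± 0.13 (SE, n = 2 per group; limma adjusted p = 0.0433). Its arrays of normal mice overlapped, at 10.59 and 10.46 in HSC and 10.51 and 10.79 in KSL. Mrps14 read 9.95 and 10.01 in HSC and 10.77 and 10.49 in KSL of leukemic mice, a difference of -0.65 ± 0.11 (limma adjusted p = 0.0445). It was the only member past the threshold in normal and in leukemic mice alike. Its other 2 probe sets, which were dimmer, differed in normal mice by 0.06 and -1.38, and in leukemic mice by -0.82 and -0.15.

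Mrpl52 and Mrps6 were higher in HSC of leukemic mice. Mrpl52, a large-subunit protein, read 12.94 and 13.12 in HSC and 12.12 and 11.94 in KSL, a difference of 1.00 ± 0.11 (SE, n = 2 per group; limma adjusted p = 0.0191). In normal mice it read 13.14 and 13.02 in HSC and 12.33 and 12.48 in KSL, so all 4 HSC arrays were above all 4 KSL arrays. Of its other 3 probe sets, the brighter 2 showed 1.30 and 1.27 in leukemic mice and the dimmest 0.06. Mrps6 is a small-subunit protein whose locus overlaps that of the inositol transporter gene Slc5a3, and reads of overlapping transcripts cannot be told apart here. Its signal was 9.88 and 9.66 in HSC and 8.94 and 9.02 in KSL of leukemic mice, a difference of 0.79 ± 0.13 (limma adjusted p = 0.0475), and its other probe set showed 0.33.

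Rps28, of the small subunit, was the cytosolic member that passed in leukemic mice. It read 13.96 and 13.94 in HSC and 13.63 and 13.73 in KSL, a difference of 0.27 ± 0.05 (SE, n = 2 per group; limma adjusted p = 0.0494). Its other 2 probe sets showed 0.23 and 0.25. The difference depended on the scaling between arrays: limma gave adjusted p = 0.602 after quantile normalization, 0.372 with a common median and 0.171 with cyclic loess, and the difference went as low as 0.060 over all settings run.

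**Figure D3:**
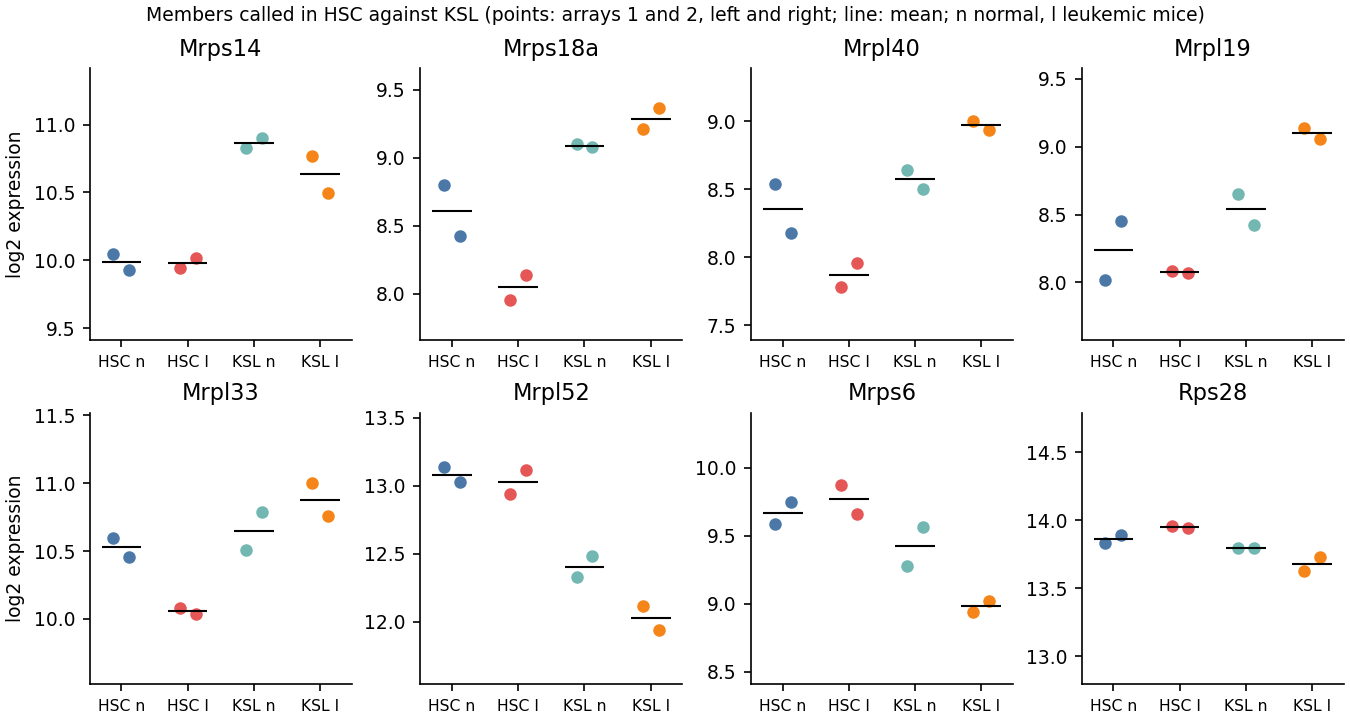
Log2 expression of the 8 members that passed in HSC against KSL, by group (HSC n and KSL n, normal mice; HSC l and KSL l, leukemic mice), with a point for each of the 2 arrays and a line at the group mean. All panels span the same number of log2 units; Mrps14, Mrps18a, Mrpl52, Mrps6 and Rps28 have all 4 HSC arrays on 1 side of all 4 KSL arrays, and Mrpl40, Mrpl19 and Mrpl33 separate in leukemic mice.

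These calls rested on few arrays. With an array left out, the adjusted p of limma lay between 0.0326 and 0.109 for Mrpl52, whose call was kept in 6 of 8 such fits, and between 0.0222 and 0.134 for Mrps18a, kept in 3. Mrpl40 (0.0252 to 0.176) and Mrpl19 (0.0273 to 0.216) kept theirs in 2 of 8. Mrpl33 (0.0641 to 0.196), Mrps14 (0.0641 to 0.148), Mrps6 (0.0661 to 0.232) and Rps28 (0.062 to 0.201) kept theirs in 0. No mitochondrial member was called without replicate 1 or without replicate 2 of KSL of leukemic mice. Some calls were lost without any array of normal mice. Without replicate 1 of HSC of leukemic mice Mrpl52 alone kept its call, and without replicate 2 Mrpl52 and Mrps18a did. Most mitochondrial members called in those fits were others. The differences themselves kept their sign in all these fits, and the mitochondrial median stayed between -0.43 and -0.32.

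Beyond the called genes, the mitochondrial class as a whole lay lower in HSC of leukemic mice. The median difference was -0.35, with 57 members lower and 19 higher, beside 0.0094 over all genes, of which 41.2% were lower and 50.7% higher. The arrays did not overlap for 45 lower members, 59.2% of the class against 23.2% of all genes, and for 8 higher members, 10.5% against 28.2%. Probe sets that did not represent their gene gave a like picture: of 80, 52 were lower and 26 higher, with a median of -0.30. Both subunits lay lower, with medians of -0.43 over the 47 large and -0.26 over the 29 small members by symbol. Among the uncalled lower members, picked after their values were seen, Mrpl46 was at -1.03 and Mrps35 at -0.56 (limma adjusted p = 0.292 and 0.0702). Uncalled and higher without overlap were Mrps2 at 0.62, Mrpl57 at 0.58 and Mrpl38 at 0.42. On the same arrays of leukemic mice the proliferation markers Mki67, Ccna2, Pcna and Kif11 overlapped between HSC and KSL. The medians of the granulocyte-monocyte progenitor and proliferation lists were still lower in HSC there, as given above. So were those of 7 multipotent and lymphoid-primed progenitor markers (6.39 and 6.93 against 8.13 and 8.35), 5 mast cell and basophil markers (5.17 and 6.14 against 8.62 and 8.89) and 5 T and NK cell markers (4.24 and 4.56 against 5.39 and 5.55). Of the T and NK list, Cd8a was higher in HSC and Klrd1 read the floor on all these arrays. Higher in HSC were the medians of 6 megakaryocyte markers (9.89 and 10.3 against 6.90 and 6.93). The same held for 7 neutrophil markers (9.17 and 9.78 against 8.24 and 8.37) and 6 erythroid markers (7.38 and 7.58 against 5.66 and 5.72). It also held for 6 stroma and endothelium markers (6.28 and 6.95 against 4.91 and 4.96). Within these higher lists Tfrc, Pecam1 and Mmp8 were lower in HSC, and Hba-a1, Car1, Cdh5 and Lcn2 overlapped. The part of these lists in the shift was not tested.

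The HSC to KSL differences of normal and of leukemic mice come from separate arrays and can be set side by side. Of the 76 mitochondrial members, 43 were lower in HSC in both and 12 were higher in both, against 26.2% and 34.7% of all genes. Without array overlap in both, 16 were lower (21.1%, against 10.1% of all genes) and 3 higher (3.95%, against 13%), 0 were lower in normal but higher in leukemic mice (against 1.9%), and 1 was the reverse (against 2.01%). The difference was larger in size in leukemic mice for 57 mitochondrial members (75%) and for 34 cytosolic members (75.6%), against 54.3% of all genes. Members with all 4 HSC arrays below all 4 KSL arrays numbered 11 (14.5%, against 7.44% of all genes): Mrpl18, Mrpl41, Mrpl55, Mrpl58, Mrps10, Mrps11, Mrps14, Mrps15, Mrps18a, Mrps25 and Mrps33. All 4 HSC arrays were above for Mrpl52, Mrps2 and Mrps6 (3.95%, against 9.4%).

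**Figure D4:**
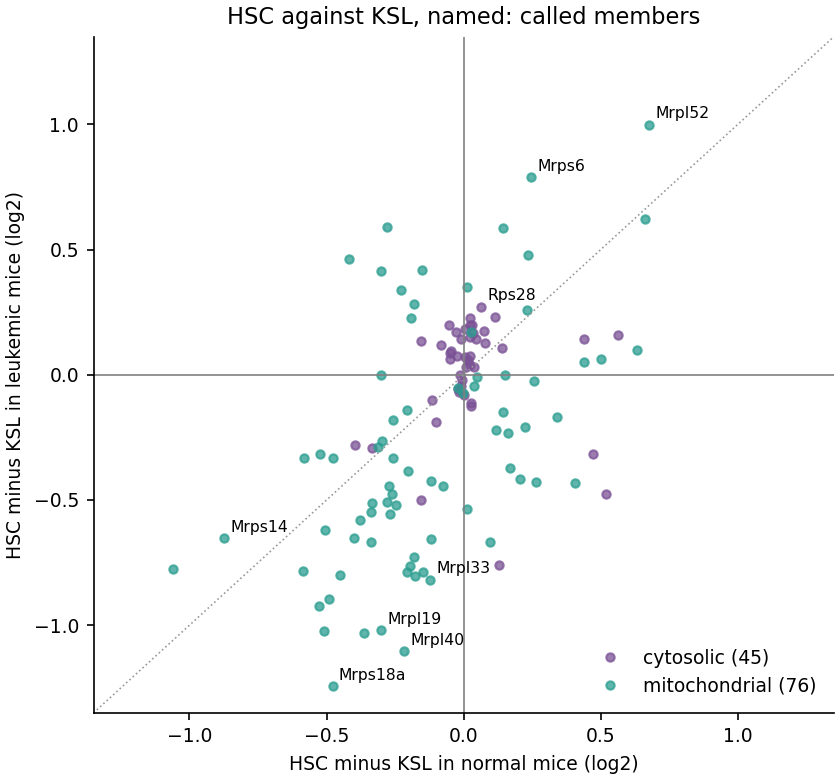
Log2 difference HSC minus KSL in normal mice (x) against the same in leukemic mice (y) for the 45 cytosolic and 76 mitochondrial members, with names for those that passed the test on either axis and a dotted line of equal values. Most mitochondrial points are in the lower left (43 lower in both) and most lie farther from 0 on the y axis (57 of 76), while most cytosolic points are close to 0 on both.

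Bright cytosolic members leaned to higher values in HSC of leukemic mice under the deposited scaling, by small amounts. The class median difference was 0.010 in normal mice (25 higher, 19 lower), but -0.019 with arrays shifted to a common median and -0.0013 without replicate 1 of HSC of normal mice. In leukemic mice the median was 0.073 (30 higher, 15 lower), but 0.00 after quantile normalization and -0.029 with cyclic loess, so its direction was not settled. Under the deposited scaling the arrays of leukemic mice did not overlap for 19 higher members (42.2%, against 28.2% of all genes) and 6 lower members (13.3%, against 23.2%). Of the 33 members with a mean above 12, 26 were higher and 18 of these did not overlap (54.5%). Of all 148 genes that bright, which include these members, 91 were higher and 61 of these did not overlap (41.2%). In normal mice 10 higher (22.2%) and 4 lower members (8.89%) did not overlap, against 24.2% and 19.3% of all genes. The values without array overlap were small on the bright members, such as Rpl37a (0.23), Rpl22 (0.20), Rpl27a (0.20) and Rps7 (0.18) higher and Rpl4 (-0.19) lower in HSC of leukemic mice. On dim probe sets they were larger, with Rpl3l at -0.76, Rps25 at -0.48 and Rpl37 at -0.28, and Rps27l (11.9) at -0.50. In normal mice, Rpl39 (0.56), Rps27 (0.44), Rps19 (0.14), Rpl37a (0.11) and Rpl27 (0.08) were higher without overlap, and Rpl37 (-0.39), Rpl7 (-0.12), Rpl4 (-0.10) and Rplp2 (-0.05) lower. All 4 HSC arrays were above all 4 KSL arrays for 5 cytosolic members (Rpl27, Rpl37a, Rpl38, Rps18 and Rps28) and below for Rpl37 and Rpl4, where 9.4% and 7.44% of all genes did so.

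Promoters were searched for letters that factors of ribosomal and mitochondrial genes are known to bind, since many mitochondrial members differed in 1 direction. RefSeq windows of GRCm38.p6, from 250 bases before to 50 after the start, were found for 39 cytosolic and 67 mitochondrial members. The core of sites for ETS factors such as GABPA (CCGGAAG on either strand) was in 19 of the 39 cytosolic windows (48.7%) and 24 of the 67 mitochondrial windows (35.8%), against 9.12% of 27025 promoters. The core of YY1 sites (AAGATGG, either strand) was in 15.4% and 19.4%, against 6.47%, and that of NRF1 sites (GCATGCG, either strand) in 7.69% and 11.9%, against 3.64%. No motif was barred from sharing bases with another. The E-box CACGTG, to which Myc proteins bind, was in 7.69% and 7.46%, against 7.24%, and a pyrimidine run (CTTTTC, either strand) in 28.2% and 11.9%, against 21.8%. Mitochondrial members were then split into those with HSC arrays below KSL arrays in leukemic mice (41 windows) and the others (26 windows), as a description with no test. The ETS core was in 14 (34.1%) and 10 (38.5%) of these, the NRF1 core in 5 (12.2%) and 3 (11.5%), and the YY1 core in 6 (14.6%) and 7 (26.9%). The E-box was in 4 (9.76%) and 1 (3.85%), and the pyrimidine run in 6 (14.6%) and 2 (7.69%). A match to letters is a description and does not show that a factor binds.

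The 150 bases before the start are shown for the 7 called members in the promoter table, so that those lower in HSC (Mrps18a, Mrpl40, Mrpl33 and Mrps14) can be set beside those higher in HSC (Mrpl52, Mrps6 and Rps28). Rplp2 and Rpl41, the brightest cytosolic members, follow. Sequences run 5′ to 3′ on the gene's strand. Capitals mark the ETS core, and also the YY1 core AAGATGG in Mrpl52, a CTTTTC run in Rplp2 and the NRF1 core, as its complement CGCATGC, in Mrpl33.
Mrps18a (chr17:46110854-46111003, plus strand): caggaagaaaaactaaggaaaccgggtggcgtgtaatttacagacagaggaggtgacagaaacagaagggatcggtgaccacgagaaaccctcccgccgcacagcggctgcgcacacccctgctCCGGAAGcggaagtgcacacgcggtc
Mrpl40 (chr16:18876638-18876787, minus strand): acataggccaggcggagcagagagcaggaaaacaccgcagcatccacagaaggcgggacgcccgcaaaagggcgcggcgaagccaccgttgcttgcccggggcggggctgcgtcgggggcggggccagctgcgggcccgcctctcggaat
Mrpl33 (chr5:31613801-31613950, plus strand): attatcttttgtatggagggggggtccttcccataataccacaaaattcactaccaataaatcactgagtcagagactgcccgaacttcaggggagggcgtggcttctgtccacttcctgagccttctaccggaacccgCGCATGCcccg
Mrps14 (chr1:160195065-160195214, plus strand): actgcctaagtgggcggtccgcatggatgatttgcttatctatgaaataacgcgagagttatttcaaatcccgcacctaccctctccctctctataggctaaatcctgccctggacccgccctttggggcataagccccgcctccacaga
Mrpl52 (chr14:54426759-54426908, plus strand): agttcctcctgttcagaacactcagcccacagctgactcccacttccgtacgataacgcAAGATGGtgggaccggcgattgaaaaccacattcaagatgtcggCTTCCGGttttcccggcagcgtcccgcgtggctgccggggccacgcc
Mrps6 (chr16:92058186-92058335, plus strand): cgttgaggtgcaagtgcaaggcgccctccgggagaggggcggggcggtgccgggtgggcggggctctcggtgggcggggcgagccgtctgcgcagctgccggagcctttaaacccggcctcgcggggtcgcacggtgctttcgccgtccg
Rps28 (chr17:33824563-33824712, minus strand): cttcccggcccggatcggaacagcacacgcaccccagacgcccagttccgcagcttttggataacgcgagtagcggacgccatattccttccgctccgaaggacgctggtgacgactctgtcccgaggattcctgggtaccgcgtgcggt
Rplp2 (chr7:141447501-141447650, plus strand): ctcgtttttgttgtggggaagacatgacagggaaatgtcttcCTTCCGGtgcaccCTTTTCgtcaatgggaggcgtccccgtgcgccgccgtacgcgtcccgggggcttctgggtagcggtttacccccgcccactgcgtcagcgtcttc
Rpl41 (chr10:128549169-128549318, minus strand): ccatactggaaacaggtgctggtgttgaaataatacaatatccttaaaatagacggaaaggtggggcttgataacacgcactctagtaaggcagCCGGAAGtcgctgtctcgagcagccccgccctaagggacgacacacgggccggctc
The ETS core is in 2 of these 7 called members' 150 bases, beginning 26 bases before the start in Mrps18a and 47 in Mrpl52, which differed in opposite directions. It begins 108 bases before the start in Rplp2 and 56 in Rpl41. In the whole window searched, Mrpl33 also holds an ETS core, outside the bases shown, and Mrpl40, Mrps14, Mrps6 and Rps28 hold none of the 5 motifs.

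Leukemic against normal mice in HSC asks what exposure to the leukemia did to the stem cell fraction. No member passed: limma called 0 of 45 cytosolic and 0 of 76 mitochondrial members, where 0.0989% of all genes passed (0.0605% higher and 0.0385% lower). At an unadjusted p under 0.05 it counted 2 higher and 0 lower cytosolic and 3 higher and 7 lower mitochondrial members, where 6.54% of all genes were higher and 7.23% lower. The smallest p adjusted over all genes was 0.168, for Mrpl27, whose bacterial homolog reaches into the centre where peptide bonds form. Mrpl27 read 7.79 and 7.68 in HSC of normal and 8.37 and 8.24 in HSC of leukemic mice, a difference of 0.57 ± 0.11 (SE, n = 2 per group) without overlap. Without replicate 1 or without replicate 2 of HSC of leukemic mice, 2 mitochondrial members were called.

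The mitochondrial median in this comparison had no settled direction. It was -0.094, with 47 lower and 29 higher (45.8% and 46.3% of all genes), but turned to 0.030 without replicate 1 of HSC of leukemic mice and to 0.023 without replicate 1 of HSC of normal mice, which is a male-pattern array. Higher without overlap were Mrps9 (1.07), Mrpl13 (0.61), Mrpl27 (0.57), Mrpl3 (0.46) and Mrpl38 (0.44). Mrps9, of the small subunit, read 8.63 and 8.12 in normal and 10.07 and 8.82 in leukemic mice, so most of its difference came from 1 array. Lower without overlap were Mrpl28 (-0.58), Mrps18a (-0.56), Mrpl42 (-0.55), Mrps18b (-0.54) and Mrpl40 (-0.49). Non-overlap was seen for 8 higher (10.5%, against 16% of all genes) and 11 lower members (14.5%, against 16.7%), shares below those of all genes.

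Bright cytosolic members lay slightly higher in HSC of leukemic mice under the deposited scaling. The cytosolic median was 0.036 (29 higher, 16 lower), but -0.032 after quantile normalization and -0.011 with cyclic loess. Among the 33 members with a mean above 12 it was 0.041, with 26 higher, beside 0.016 for all 148 genes that bright, with 80 higher. The largest without overlap were Rpl22 (0.17), Rps29 (0.16), Rpl41 (0.14), Rpl35 (0.11) and Rps20 (0.11). Rps29, of the small subunit, read 13.60 and 13.62 in normal and 13.81 and 13.72 in leukemic mice (limma adjusted p = 0.244). Lower without overlap were Rps27 on its dim probe set (-0.55) and Rps14, whose difference was -0.0049.

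Leukemic against normal mice in KSL asks the same of the whole gate. Again limma called 0 of 45 cytosolic and 0 of 76 mitochondrial members, where 0.044% of all genes passed. At an unadjusted p under 0.05 it counted 6 higher and 2 lower mitochondrial and 2 higher and 0 lower cytosolic members, where 3.5% of all genes were higher and 4.45% lower. Mrps35, of the small subunit, had the smallest p (limma adjusted p = 0.282). It read 8.87 and 9.04 in normal and 9.56 and 9.54 in leukemic mice, a difference of 0.60 ± 0.11 (SE, n = 2 per group) without overlap.

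Most mitochondrial members had higher values in KSL of leukemic mice, each by less than the test could call. The median was 0.16, with 56 higher and 20 lower, beside 0.00 over all genes, of which 42.5% were higher and 48.7% lower. Arrays did not overlap for 36 higher members (47.4%, against 20.5% of all genes) and 5 lower members (6.58%, against 24.1%). The median kept its sign in all settings run, between 0.075 without replicate 1 of KSL of normal mice, a male-pattern array, and 0.22 with a common median. The unchosen probe sets had 57 higher and 21 lower, with a median of 0.14. After Mrps35 the largest were Mrpl19 (0.56), Mrpl45 (0.55), Mrpl46 (0.53) and Mrpl48 (0.44), all of the large subunit. On the same KSL arrays the erythroid marker median went from 7.09 and 7.98 in normal to 5.66 and 5.72 in leukemic mice. Within that list Tfrc rose, from 9.61 and 9.71 to 9.99 and 10.36, and Hba-a1 overlapped. The multipotent and lymphoid-primed median went from 9.98 and 10.4 to 8.13 and 8.35, that of T and NK cells from 6.21 and 6.86 to 5.39 and 5.55, and that of mast cells and basophils from 7.84 and 8.08 to 8.62 and 8.89. Granulocyte-monocyte progenitor medians went from 12.44 and 12.79 to 12.96 and 13.12, though Irf8 and Csf1r of that list fell. Neutrophil medians went from 5.64 and 7.28 to 8.24 and 8.37, though S100a8, S100a9, Ngp and Camp of that list overlapped. Stroma and endothelium medians went from 4.76 and 4.77 to 4.91 and 4.96. Of that list Kdr and Pecam1 fell, and Col1a1 and Col1a2 overlapped. Megakaryocyte medians fell from 7.20 and 8.01 to 6.90 and 6.93, and the medians of the remaining lists overlapped. The part of these lists in the class shift was not tested. Lower without overlap were Mrps6 (-0.44), Mrpl52 (-0.37), Mrps14 (-0.23), Mrpl49 (-0.21) and Mrpl23 (-0.20).

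The cytosolic median in KSL was -0.041 (17 higher, 28 lower), but 0.022 with a common median, 0.0012 with cyclic loess and 0.027 over probe sets whose identifiers carry no mark of shared probes. Higher without overlap were Rpl3l (0.61), Rps27l (0.16), Rps16 (0.16), Rps2 (0.11) and Rpl4 (0.08). Rpl3l, a homolog of Rpl3 made mainly in striated muscle, stayed dim at 4.31 and 4.44 in normal and 4.88 and 5.09 in leukemic mice, and Rps16 read the floor of 3.32 on both arrays of normal mice. Lower without overlap were Rps6 (-0.30), Rps27 (-0.25), Rpl12 (-0.25) and Rpl14 (-0.17), all on dim probe sets, and Rps28 (-0.12).

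Whether leukemia acted differently in HSC and in KSL was tested as an interaction, in which the KSL difference was subtracted from that of HSC. Limma called 0 of 45 and 0 of 76 members, where 0.0055% of all genes passed, and at an unadjusted p under 0.05 counted 3 higher and 1 lower cytosolic and 1 higher and 5 lower mitochondrial members, where 4.81% of all genes were higher and 4.28% lower. The smallest was Mrpl40, at -0.89 ± 0.20 (SE, n = 2 per group; limma adjusted p = 0.358). Mrps18a was at -0.76 ± 0.21 (adjusted p = 0.417, limma) and Mrpl33 at -0.70 ± 0.19 (adjusted p = 0.407, limma). So the larger HSC to KSL gaps of leukemic mice were not shown to differ from those of normal mice. The mitochondrial median was -0.21 (52 lower, 24 higher, against 44.8% and 48.1% of all genes), -0.036 without replicate 1 of HSC of normal mice, -0.13 without replicate 1 of HSC of leukemic mice, -0.33 without replicate 2 of HSC of normal mice and 0.028 without both male-pattern arrays. The cytosolic median was 0.049, but -0.054 after quantile normalization.

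The leukemic to normal differences of HSC and of KSL come from separate arrays. Of the 76 mitochondrial members, 31 were lower in HSC and higher in KSL (40.8%, against 18.9% of all genes), 25 were higher in both (32.9%, against 23.2%), 16 lower in both (21.1%, against 26.1%) and 4 higher in HSC and lower in KSL (5.26%, against 22.3%). Without overlap in either gate, Mrpl40, Mrps18a and Mrps25 were lower in HSC and higher in KSL (3.95%, against 2.83%). Mrpl27, Mrpl3 and Mrps35 were higher in both (3.95%, against 4.28%), as was the cytosolic Rpl27, and Mrpl23 was lower in both (1.32%, against 5.9%). Cytosolic members lay the other way under the deposited scaling: 19 of 45 were higher in HSC and lower in KSL (42.2%, against 22.3%), 5 of them without overlap (Rpl22, Rpl35, Rplp2, Rps20 and Rps28; 11.1%, against 3.26%). The signs of both cytosolic medians turned under other scalings, as given above.

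**Figure D5:**
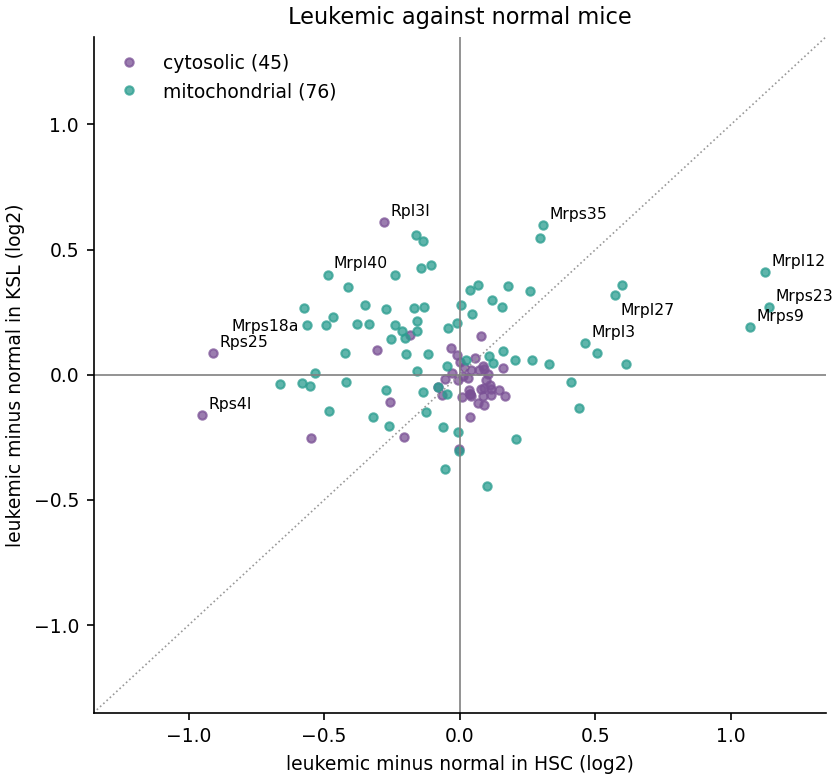
Log2 difference leukemic minus normal in HSC (x) against KSL (y) for the 45 cytosolic and 76 mitochondrial members, with a dotted line of equal values. Named points were picked after their values were seen and did not pass the test; more mitochondrial points lie above the x axis (56) than below (20), and Mrps9, Mrpl12 and Mrps23, on the far right, have a wide gap between their 2 arrays of HSC of leukemic mice.

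Of the members listed for a role in human marrow failure (Rps19, Rps14, Rps24, Rps26 and Rpl11), 0 passed in any comparison, where 0.0055% to 5.86% of all genes did. The list was not complete, and Rps28, which passed as given above, was not on it. Rps19, the gene most often mutated in Diamond-Blackfan anemia, ranged from 12.23 to 12.62 over the 8 arrays, and Rps14, lost in the myelodysplastic syndrome with a chromosome arm deletion, from 13.01 to 13.15. Rps24, Rps26 and Rpl11, also mutated in that anemia, ranged from 13.15 to 13.36, from 12.82 to 13.08 and from 13.37 to 13.46. Their largest difference in any of the 4 group comparisons was 0.15, for Rps26 in HSC against KSL of leukemic mice (limma adjusted p = 0.315). Rpl22, whose loss is known from T cell leukemia, ranged from 13.48 to 13.78, and in HSC of leukemic mice it was higher without overlap than in HSC of normal and KSL of leukemic mice, by 0.17 and 0.20. The stalk proteins Rplp0 and Rplp2, which bring in the translation GTPases, ranged from 13.09 to 13.31 and from 14.22 to 14.36. X-linked Rps4x ranged from 12.57 to 12.75, and its 2 male-pattern arrays read 12.62 and 12.75, the latter the highest of the 8.

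The homologs Rpl39l and Rpl3l stayed dim, unlike Rps27l. Rpl39l, made mainly in testis, read the floor of 3.32 on 1 array and at most 3.96. Rpl3l read 4.08 to 5.09. Rps27l, a target of p53, was bright and ranged from 11.54 to 12.18, with -0.50 in HSC against KSL of leukemic mice (limma adjusted p = 0.112). Their partners Rpl39 and Rps27 were read through dim probe sets, from 6.75 to 7.83 and from 7.03 to 8.05, and Rps6, the substrate of the S6 kinases, likewise from 9.56 to 10.30.

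Mitochondrial members with a role in human disease or beyond the ribosome varied more, mainly between the arrays of HSC. Mrps12, the homolog of the bacterial decoding protein that streptomycin acts on, ranged from 9.25 to 10.88, and Mrps16 from 9.65 to 10.58. Mrps22, Mrpl3 and Mrpl44, each mutated in mitochondrial disease, ranged from 7.999 to 9.24, from 9.40 to 10.16 and from 8.94 to 9.70. Both ends of the range were HSC arrays for Mrps16, Mrps22 and Mrpl3. For Mrpl12 the ends were 9.93 and 12.61, both in HSC. Mrps18b, another homolog of S18, ranged from 9.57 to 10.40, and its HSC arrays overlapped the KSL arrays in normal mice but lay below them in leukemic mice, at -0.37 (limma adjusted p = 0.29).

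Genes that make and run ribosomes were counted in the same fit. In the comparisons of leukemic with normal mice, and in the interaction, 0 genes of the 7 lists passed, where 0.0989%, 0.044% and 0.0055% of all genes did. In HSC against KSL of normal mice, 1 of 22 measured genes of translation control passed, Mycn, a Myc family factor that drives ribosome production. Mycn was higher in HSC by 2.10 ± 0.10 (SE, n = 2 per group; limma adjusted p = 0.00952), where 1.8% of all genes passed. In leukemic mice Mycn was higher by 2.59 ± 0.10 (limma adjusted p = 0.00525), from a mean of 7.33 in KSL to 9.92 in HSC. The group means of Myc itself ran from 11.99 in KSL of leukemic mice to 12.16 in KSL of normal mice.

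In leukemic mice 4 of the other 6 lists had genes that passed, where 5.86% of all genes did. For transcription by RNA polymerases I and III it was 2 of 22, with Rrn3, an initiation factor of polymerase I, lower in HSC by -0.80 ± 0.09 (SE, n = 2 per group; limma adjusted p = 0.0242) and Taf1c higher by 0.71 ± 0.10 (limma adjusted p = 0.0329). For ribosome biogenesis it was 2 of 37, Nolc1 (-0.92) and Nle1 (-0.56), both lower. The cytosolic initiation factor Eif1ax (-0.62, 1 of 25) and the mitochondrial histidyl-tRNA synthetase Hars2 (-1.29, 1 of 30 mitochondrial translation factors) were also lower. None passed among 12 elongation and termination genes, or among 8 ribosomal proteins with other names, of which Dap3 of the mitochondrial small subunit was at -0.79 (limma adjusted p = 0.119).

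The medians of these lists in HSC against KSL of leukemic mice were -0.42 for the mitochondrial translation factors (18 of 30 lower) and -0.27 for ribosome biogenesis (29 of 37 lower), beside -0.35 for the mitochondrial ribosomal proteins and 0.0094 for all genes. Translation control lay at 0.15 (17 of 22 higher) and initiation at -0.052. In KSL of leukemic against normal mice, ribosome biogenesis lay at 0.22 (31 of 37 higher) and the mitochondrial translation factors at 0.069 (19 of 30 higher). In HSC of leukemic against normal mice the same lists were at -0.011 and -0.090. Gabpa, the ETS factor named above, was higher in leukemic mice without overlap by 0.50 in HSC and 0.49 in KSL (limma adjusted p = 0.342 and 0.608), and was picked after its values were seen.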

How the data were processed

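The authors deposited log2 expression values per probe set of a mouse Affymetrix array for 8 samples, made with RMA per the submitters' processing notes, with no version given; no value was below 10 on the linear scale (3.32 in log2). These values were used as deposited. Of 45101 probe sets, 34945 named 1 gene; those of several symbols (932), of none (9160) and controls (64) were left out, and each of 18193 genes was represented by its probe set of highest mean. No column of other samples was present.

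Group means were fitted over all 8 arrays with limma 3.58.1 (lmFit and eBayes, 4 residual and 0.6684 prior degrees of freedom) in R 4.3.3, with Benjamini-Hochberg adjustment over 18193 genes and a threshold of 0.05. The number of arrays, 2 per group, limits the precision. The fit was tested on simulated data. Figures were drawn in matplotlib 3.10.9 and tables handled in pandas 2.3.3 and numpy 2.4.6, under Python 3.11.15. Alternatives covered scaling between arrays, dim genes, the choice of probe set, moderation, array weights, a replicate block and left-out arrays.

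The members and gene lists were chosen with earlier results of these data known. Genes were named by a rule: called members, up to 5 per direction, class and comparison; where fewer were called, the members without array overlap that differed most; members of known role; and called genes of each list, up to 2 per direction. The labels do not state pairs, and the numbers were not taken as pairs. Over all genes, the deviations of same-numbered arrays had r between -0.035 and 0.087. The highest r was that of HSC and KSL of normal mice, whose replicate 1 arrays both carried the male pattern. Most genes vary little beyond noise, so these r cannot decide whether same-numbered arrays share a source.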

Additional observations from a re-analysis of the deposited data

How the results depend on the processing

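No result turned from called higher to called lower or the reverse. The count of called members was 0 with the replicate block and with only the 2 groups compared. This held for mitochondrial members in HSC against KSL of normal (main value 1) and of leukemic mice (7) and for cytosolic members in leukemic mice (1). The labels do not state that replicate numbers pair the samples, but the 2 male-pattern arrays are both replicate 1 of normal mice. Whether same-numbered arrays share a source was not tested. The fits of only 2 groups have fewer samples. The mitochondrial call in normal mice was also 0 without genes at the floor, without the lowest 40% of genes, with the mean over probe sets and with array weights. The cytosolic call in leukemic mice was also 0 under those 4 settings and with quantile normalization, a common median and cyclic loess, and 2 with trend and robust moderation. The mitochondrial count in leukemic mice was 3 with array weights. The cause of these changes was not tested.

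Medians without the 2 male-pattern arrays were 0.056 (cytosolic) and 0.023 (mitochondrial) for leukemic against normal HSC, -0.021 (cytosolic) for KSL, 0.082 (cytosolic) and 0.028 (mitochondrial) for the interaction, and -0.37 (mitochondrial) for HSC against KSL of normal mice. The cytosolic median of leukemic against normal HSC was -0.032 with quantile normalization, 0.083 with a common median, -0.011 with cyclic loess, 0.0051 with the mean over probe sets and -0.021 with unmarked probe sets alone (those whose identifier has no mark of shared probes). In the same order that of KSL was -0.0041, 0.022, 0.0012, -0.0021 and 0.027, and that of HSC against KSL of leukemic mice 0.00, 0.027, -0.029, 0.035 and -0.010. For the cytosolic interaction, quantile normalization gave -0.054, cyclic loess -0.041, the mean over probe sets 0.0047 and unmarked probe sets -0.014. For HSC against KSL of normal mice, quantile normalization gave 0.042 and a common median -0.019.

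With 1 array left out, cytosolic medians ranged from 0.021 to 0.056 (leukemic against normal HSC), -0.044 to -0.012 (KSL), 0.031 to 0.078 (interaction), -0.0013 to 0.020 (HSC against KSL, normal mice) and 0.049 to 0.074 (leukemic mice). Mitochondrial medians ranged from -0.14 to 0.030, 0.075 to 0.21, -0.33 to -0.036, -0.25 to -0.039 and -0.43 to -0.32 in that order. Called mitochondrial members ranged from 0 to 2 in leukemic against normal HSC, 0 to 2 in HSC against KSL of normal mice and 0 to 8 in leukemic mice; the cytosolic count in leukemic mice was 0 in each case. Probe sets of several symbols, an alternative chosen after seeing the data, changed no class count of calls.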
